A study of Neurospora crassa with 24 samples.

Results

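The step between 0.5 and 2% glucose in the Δ*col-26* mutant of the filamentous fungus *Neurospora crassa* is described here. It was chosen by genotype and medium alone, which gave 4 of the 24 RNA-Seq libraries of the series, 2 from mycelia in 0.5% glucose and 2 from mycelia in 2% glucose. The series holds 3 strains, Δ*col-26*, Δ*rco-3* and the WT, each without carbon source and at 0.05, 0.5 and 2% glucose, with 2 replicate cultures per combination. Conidia were grown into mycelia for 16 h at 28 °C on 2% sucrose under constant light, and the washed mycelia then spent 1 h in the medium named. Δ*col-26* and Δ*rco-3* are deletion strains of the stock centre, both of mating type *a*, and each genotype is represented by 1 strain. The pairs of libraries are replicate cultures of that strain, so the spread between them does not cover differences between isolates.

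Glucose is the preferred carbon source of this fungus. When it is plentiful, carbon catabolite repression keeps the genes for other carbon sources low, and high-affinity sugar transporters give way to low-affinity ones. COL-26 is a zinc cluster transcription factor, the relative of AmyR in *Aspergillus*, and RCO-3 is a glucose sensor of the sugar transporter family. The comparison asks which transcripts of the mutant still differ with glucose when both media hold ample sugar.

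The values are FPKM, fragment numbers scaled by transcript length and library size, for 9730 loci. In the 4 libraries they added up to 607397 and 609028 at 0.5% glucose and to 614883 and 611213 at 2% glucose. Their depth is unknown, since fragment numbers could not be recovered from the FPKM. A search for steps worth 1 fragment in 231 weakly expressed genes placed 68.4% of the low values near a whole step (to within 0.15), where an even spread would place 30%. The step was set from each gene's own lowest values, and genes were kept only with several values near it. Values near a whole step were thus favoured, so the 30% is not a like measure and nothing about depth follows. All coordinates are those of the OR74A assembly NC12. *col-26* itself (NCU07788, chromosome V, 287232 to 291574) was not at 0 in the mutant. It stood at 6.41 and 5.06 FPKM at 0.5% glucose and at 8.20 and 8.21 FPKM at 2% glucose, against means of 17.3 and 17.4 FPKM in the WT at 0.5 and 2% glucose. The mutant thus kept some signal at the locus, and it is called Δ*col-26* here because its label says so.

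Most transcripts of Δ*col-26* changed little over this step, and 34 of the 38 larger changes were toward a lower level at 0.5% glucose. The genes were compared as log2(FPKM + 1), on which changes of weakly expressed genes appear too small, in 1 limma fit of all 24 libraries over the 7981 genes with a mean of at least 1 FPKM in a group. A gene was called when the Benjamini-Hochberg adjusted p was below 0.001, the absolute log2 fold change at least 1 and the mean above 20 FPKM at 0.5 or 2% glucose. Of the genes tested, 34 were called lower at 0.5% than at 2% glucose, which is 0.426%, and 4 were called higher, which is 0.0501%. By the adjusted p alone, 955 genes (12%) were lower and 412 (5.16%) higher, most of them by small amounts. Among the 3297 genes above 20 FPKM the usual change was small, with a median log2 fold change of -0.03 and a median size of 0.13. The step moved the mean profile by a root mean square distance of 0.256, while the replicates lay 0.128 apart at 0.5% and 0.129 apart at 2% glucose. The first is a distance between means of 2 libraries, which hold less noise, and the others are distances between single libraries. For scale, the medium without carbon source lay 1.45 from 0.5% glucose and 1.34 from 2% glucose in the same strain.

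The gene with the largest change was *fdh* (NCU03813, chromosome V, 2492005 to 2494322), which encodes formate dehydrogenase, the enzyme that oxidizes formate to carbon dioxide. It had 31.1 and 31.5 FPKM in the libraries of 0.5% glucose, against 99.4 and 100 FPKM in those of 2% glucose. The groups did not overlap, and the log2 fold change of 0.5% over 2% glucose was -1.64 ± 0.048 (SE; limma, adjusted p = 1.72e-14). In the mutant without carbon source *fdh* averaged 703 FPKM and at 0.05% glucose 24.6 FPKM, so its level at 2% glucose stood between those of the poorer sugar media and of starvation.

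Next in size was NCU08949, with 122 and 128 FPKM at 0.5% glucose, against 364 and 384 FPKM at 2% glucose (log2 fold change -1.57 ± 0.064). It too was far higher without carbon source, at a mean of 3297 FPKM. *cut-1* (NCU04924, chromosome IV, 749584 to 752599), whose mutants are known as *ovc* for their surplus of carotenoids, had 27.6 and 28.5 FPKM at 0.5% glucose, against 84.04 and 83.9 FPKM at 2% glucose (-1.55 ± 0.049, adjusted p = 4.26e-14). Unlike *fdh*, *cut-1* was also low without carbon source, at 22.3 FPKM, and at 0.05% glucose, at 16.5 FPKM, so the 2% medium stood above the 3 others.

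*gcy-1* (NCU04923, 747091 to 748922) lies next to *cut-1* on chromosome IV and, like *gcy-3* (NCU04510, chromosome IV, 3139314 to 3140717), carries the name of the yeast glycerol dehydrogenase GCY1, an enzyme of glycerol metabolism. *gcy-1* had 59.8 and 63.6 FPKM at 0.5% glucose, against 125 and 129 FPKM at 2% glucose. *gcy-3* had 86.9 and 85.9 FPKM at 0.5% glucose, against 194 and 189 FPKM at 2% glucose. The log2 fold changes were -1.03 ± 0.046 and -1.14 ± 0.046, and these are the 2 *gcy* genes with a RefSeq symbol; both were named after their values were seen. The span of *gcy-3* overlaps that of NCU04509 in the annotation, so some of its fragments could belong to the neighbour.

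*eas* (NCU08457, chromosome II, 3570905 to 3572798) encodes the hydrophobin that coats conidia and aerial hyphae with a water-repellent rodlet layer. It had 301 and 305 FPKM at 0.5% glucose, against 675 and 661 FPKM at 2% glucose, and the log2 fold change was -1.14 ± 0.058 (adjusted p = 1.74e-11). Since a liquid culture can hold spores, 7 genes of conidiation were read beside it. Their summed level was 374 and 371 FPKM at 0.5% glucose, against 745 and 730 FPKM at 2% glucose, and without *eas* it was 72.9 and 65.7 FPKM, against 70.4 and 68.8 FPKM. None of the 7 was at 0 in these libraries, and *eas* was the sole member past an adjusted p of 0.001. *con-10* had 36.1 and 32.5 FPKM at 0.5% glucose, against 35.2 and 33.3 FPKM at 2% glucose, and *fl*, the regulator that commits hyphae to conidiation, 2.65 and 2.27 FPKM, against 2.22 and 1.94 FPKM. In these bulk samples fewer cells of a type and less RNA per cell cannot be told apart.

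**Figure D1:**
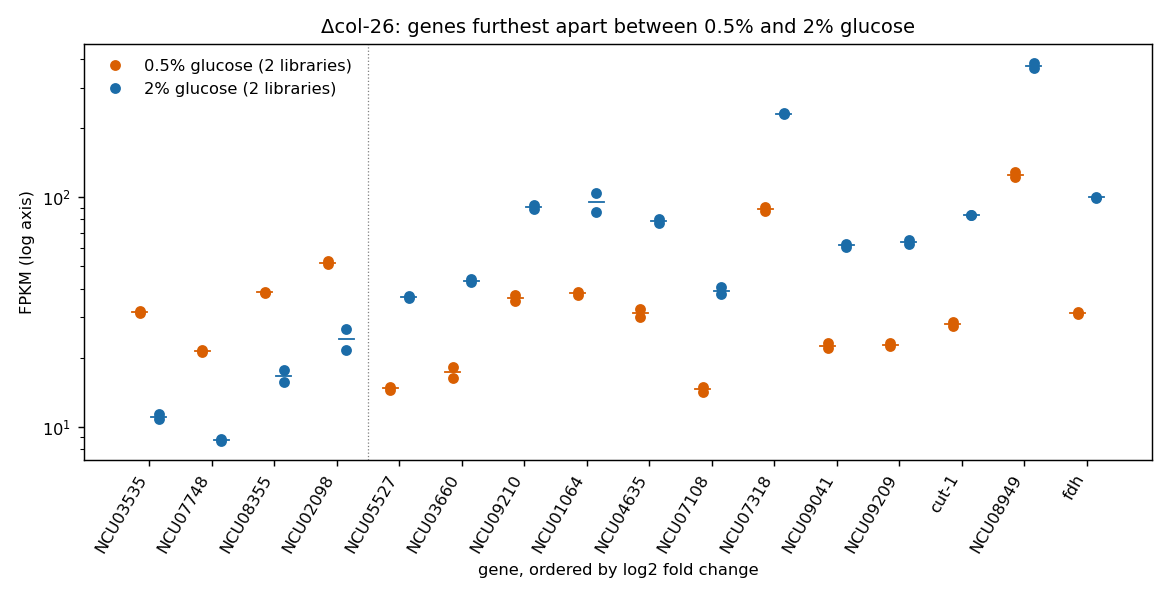
FPKM on a log axis of the 4 genes called higher and the 12 genes furthest lower at 0.5% glucose in Δ*col-26*, with 1 point per library and a bar at each mean (orange 0.5%, blue 2% glucose, 2 libraries each). The genes shown were chosen among those whose libraries of one medium lie apart from those of the other, so this separation is not a result. For example, *fdh* had 31.1 and 31.5 FPKM at 0.5% against 99.4 and 100 FPKM at 2% glucose.

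The other genes furthest lower at 0.5% glucose have no symbol in the annotation used. NCU09209 and NCU09210 are neighbours on chromosome I (5845361 to 5847904 and 5849601 to 5852150). NCU09209 had 22.4 and 23.1 FPKM at 0.5% glucose, against 62.5 and 65.2 FPKM at 2% glucose (-1.45 ± 0.056), and NCU09210 37.5 and 35.3 FPKM, against 92.2 and 88.7 FPKM (-1.29 ± 0.073). Together with *gcy-1* and *cut-1* they were the only called genes that sit next to another called gene. NCU07318 (chromosome IV, 4382529 to 4384697) had 90.3 and 87.2 FPKM at 0.5% glucose, against 229 and 233 FPKM at 2% glucose (-1.37 ± 0.03). NCU09041, NCU07108, NCU04635, NCU01064, NCU03660 and NCU05527 complete the 12 with log2 fold changes of -1.41, -1.37, -1.31, -1.30, -1.28 and -1.26. NCU09041, NCU01064 and NCU03660 overlap a neighbouring gene in the annotation and are uncertain for that reason.

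Among the rest of the 34, *nde-1* (NCU05225) encodes an NAD(P)H dehydrogenase on the outer face of the inner mitochondrial membrane, a way into the respiratory chain that bypasses complex I. It had 17.7 and 16.8 FPKM at 0.5% glucose, against 36.0 and 37.5 FPKM at 2% glucose (-1.05 ± 0.052), and its span overlaps NCU05226. *ilv-5* (NCU02397), a gene of the isoleucine and valine series by its symbol, had 16.7 and 16.6 FPKM, against 35.3 and 34.9 FPKM (-1.03 ± 0.052). These 2 genes, like the *gcy* pair, were picked from the called genes because they have symbols. In all 34 genes both libraries at 0.5% glucose lay below both at 2% glucose. The thresholds of the call all but require this, so it adds no support. The 2% mean was 2.33 times the 0.5% mean in the median of these genes, which were selected for such a change. The threshold cut through a continuum, with NCU03731 inside it at -1.01 and NCU04605 outside it at -0.99.

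The 4 genes called higher at 0.5% glucose have no symbol either. NCU03535 (chromosome II, 329641 to 331354) had 31.9 and 31.3 FPKM at 0.5% glucose, against 10.8 and 11.3 FPKM at 2% glucose (1.43 ± 0.123, adjusted p = 2.59e-08). NCU07748 had 21.3 and 21.6 FPKM, against 8.85 and 8.71 FPKM (1.197 ± 0.107), and NCU08355 had 38.2 and 38.7 FPKM, against 15.7 and 17.6 FPKM (1.16 ± 0.111). NCU02098 had 52.7 and 51.0 FPKM, against 26.6 and 21.6 FPKM (1.08 ± 0.109). The last was listed at 0 in the mutant without carbon source and overlaps NCU02097, and NCU03535 overlaps NCU03536, so these 2 values are uncertain. A further 8 genes above 20 FPKM, led by NCU06983 (111 and 112 FPKM at 0.5% glucose, against 58.9 and 56.7 FPKM at 2%), were higher at 0.5% glucose by log2 fold changes of 0.69 to 0.93.

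Across the 4 media the called genes of Δ*col-26* took different courses. NCU04635 averaged 376 FPKM without carbon source and 19.3, 31.3 and 78.8 FPKM at 0.05, 0.5 and 2% glucose. NCU06977 averaged 753, 28.1, 22 and 51.1 FPKM in the same order. Both were highest in starvation and lowest in low or intermediate sugar. By contrast, *gcy-1* averaged 42.9, 38.1, 61.7 and 127 FPKM, and NCU09209 6.66, 19.6, 22.8 and 63.9 FPKM, with the top level in 2% glucose. NCU03535 was highest at 0.05% glucose, with 1.28, 39.7, 31.6 and 11.1 FPKM over the 4 media.

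**Figure D2:**
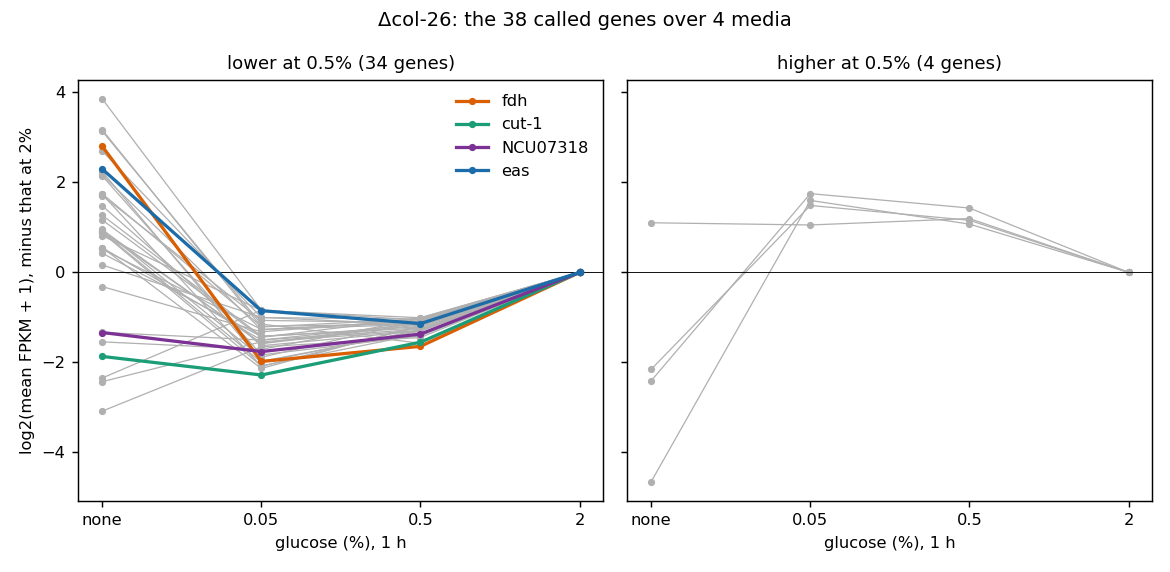
Mean log2(FPKM + 1) of the 38 called genes in Δ*col-26* over the 4 media, minus the value at 2% glucose, with the 34 genes lower at 0.5% on the left and the 4 higher on the right; each line is 1 gene. *fdh* (703, 24.6, 31.3 and 99.9 FPKM) dips in the glucose media and is higher at 2% than at 0.5%, while *cut-1* (22.3, 16.5, 28 and 84 FPKM) peaks at 2%.

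The Δ*rco-3* mutant and the WT passed through the same step in libraries of their own. Between 0.5 and 2% glucose, 47 genes were called lower at 0.5% (0.589%) and 17 higher (0.213%) in Δ*rco-3*, and 4 lower (0.0501%) and 19 higher (0.238%) in the WT. Of the 34 genes called lower in Δ*col-26*, 17 were also called lower in Δ*rco-3*, which is 50% of the first list and 36.2% of the second. In the WT 1 of the 34 was called lower, *cut-1*. By the adjusted p alone, 29 of the 34 were lower and none higher in Δ*rco-3*, while 14 were lower and 7 higher in the WT. Of all genes tested, 9.43% were lower and 9.46% higher by this measure in Δ*rco-3*, and 7.87% were lower and 7.67% higher in the WT. The median log2 fold change of the 34 was -1.17 in Δ*col-26*, where it was selected for. The same genes had a median of -0.98 in Δ*rco-3*, while that of the WT was -0.19. Over the 3297 genes above 20 FPKM in Δ*col-26*, Pearson's r of the log2 fold changes was 0.522 with Δ*rco-3* and -0.159 with the WT (Spearman's rho 0.429 and -0.26), a description across genes that come from the same few libraries.

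The steps of Δ*col-26* and the WT were then compared by a direct test of their difference. It was called for 105 genes (1.32% of those tested), 92 of them with the more negative change in Δ*col-26*, and 17 of the 34 were among these. The 34 had been selected for a negative change in the same Δ*col-26* libraries. That choice favours a negative difference, so the 17 are a description and the 1.32% is not a like measure. *fdh* moved in opposite directions, with 31.1 and 31.5 FPKM at 0.5% against 99.4 and 100 FPKM at 2% glucose in Δ*col-26* and means of 24 ± 0.14 against 12.8 ± 0.15 FPKM in the WT (SD, n = 2). The difference of the log2 fold changes was -2.50 ± 0.068 (limma, adjusted p = 3.07e-15). In Δ*rco-3* the step of *fdh* was larger still, with 33.3 ± 1.1 FPKM at 0.5% against 302 ± 3.2 FPKM at 2% glucose, and the difference Δ*col-26* minus Δ*rco-3* was 1.498 (adjusted p = 9.89e-12).

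NCU07318 and NCU07108 also moved in opposite directions in the mutant and the WT. NCU07318 averaged 163 FPKM at 0.5% and 121 FPKM at 2% glucose in the WT, and the difference Δ*col-26* minus WT was -1.79 ± 0.042 (adjusted p = 6.91e-16). NCU07108, at 14.9 and 14.2 FPKM against 40.4 and 37.9 FPKM in Δ*col-26*, averaged 13.2 against 7.09 FPKM in the WT and 10.3 against 10.9 FPKM in Δ*rco-3*. Its step differed from both strains, by -2.18 from the WT and by -1.29 from Δ*rco-3*. NCU06939, singled out after its values were seen, had 32.2 and 30.7 FPKM, against 69.6 and 66.2 FPKM, in Δ*col-26* and averaged 31.3 against 20.2 FPKM in the WT, and differed by -1.69 from the WT and by -1.03 from Δ*rco-3*.

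*ccg-13* (NCU08907, also *ncw-7*, a cell wall protein by that name) was among the 3 most negative differences against the WT. It stayed low in Δ*col-26*, with 6.41 and 5.86 FPKM at 0.5% glucose against 15.7 and 13.9 FPKM at 2%, while the WT had 394 ± 8.7 against 207 ± 5.2 FPKM. The difference was -2.07 ± 0.072 (adjusted p = 6.46e-14), and Δ*rco-3* averaged 15 FPKM in both media. On the positive side stood NCU03535, NCU02098 and NCU03764. NCU03764 had 5.11 and 5.24 FPKM against 2.40 and 3.78 FPKM in Δ*col-26* and 11.8 against 20.6 FPKM in the WT (difference 1.38 ± 0.282).

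In other genes the difference from the WT did not pass the fold threshold. For *gcy-1* the WT averaged 146 FPKM at 0.5% and 290 FPKM at 2% glucose, and the difference Δ*col-26* minus WT was -0.04 ± 0.065 (adjusted p = 0.633). For *cut-1* the WT averaged 53 against 117 FPKM, and the difference of -0.42 ± 0.07 (adjusted p = 8.65e-05) was smaller than the step itself. For *gcy-3* it was -0.30 ± 0.065 (adjusted p = 1.06e-03) and for *eas* -0.31 ± 0.082 (adjusted p = 4.82e-03). The level of *eas* in the WT, at 2.76 FPKM at 0.5% and 5.68 FPKM at 2% glucose, was far below that in Δ*col-26*. The difference of *cut-1* from Δ*rco-3*, -1.22 (adjusted p = 2.60e-10), was the larger one, since Δ*rco-3* averaged 42.8 against 53.8 FPKM. Against Δ*rco-3* the step differed at the thresholds for 46 genes (0.576%), 38 of them more negative in Δ*col-26*.

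**Figure D3:**
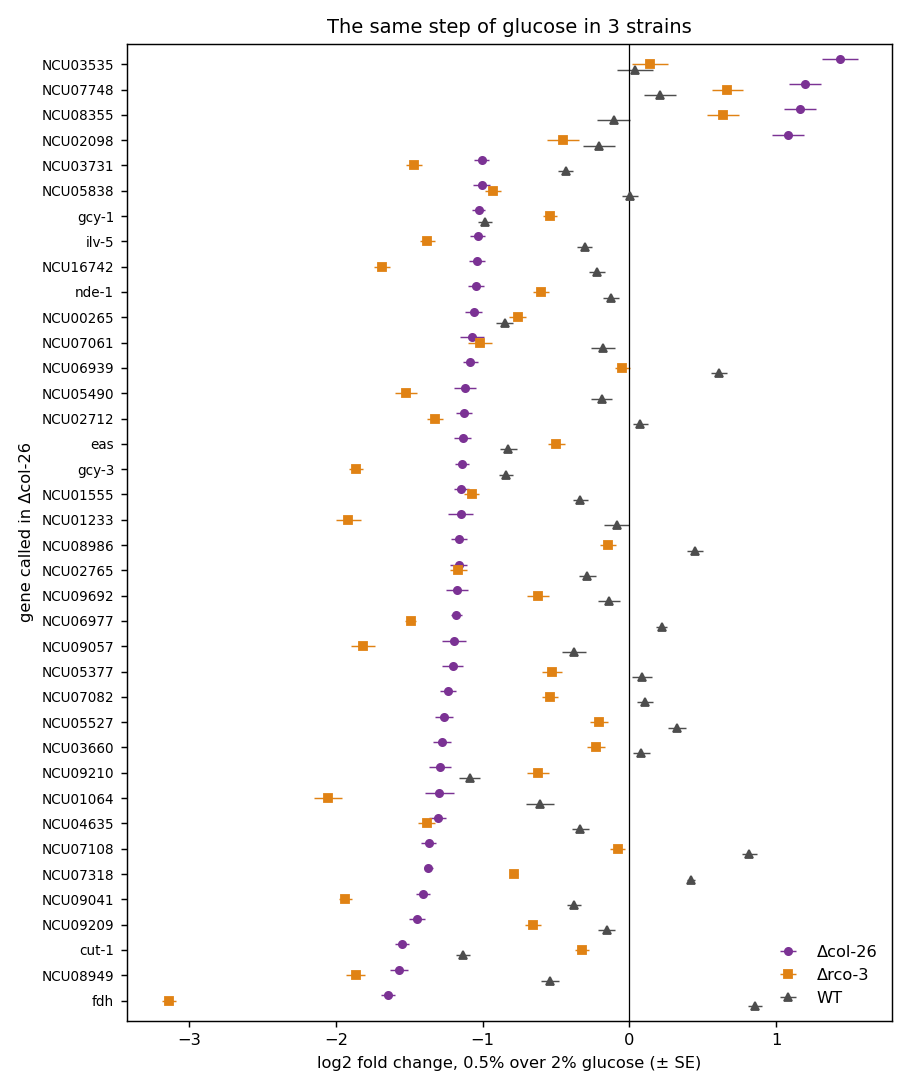
Log2 fold change of 0.5% over 2% glucose (± SE) of the 38 genes called in Δ*col-26*, shown for Δ*col-26* (circles), Δ*rco-3* (squares) and WT (triangles). For *fdh* the values were -1.64, -3.14 and 0.86, while for *gcy-1* they were -1.03, -0.54 and -0.98.

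Most of the genes lower at 0.5% glucose in Δ*col-26* were high in the starved WT. Without carbon source, against 2% glucose, 21 of the 34 were called higher in the WT (61.8%), where 16.9% of all genes tested were, and 4 were called lower. That 16.9% is 1352 of 7981 genes and counts weak genes that could not be called. In this WT comparison 4174 genes were above 20 FPKM in a group, the level a call needs. The 34 had passed that level in Δ*col-26*, so the 16.9% understates the share to set beside them. These WT libraries share none with the comparison in Δ*col-26*. In the WT *fdh* averaged 1024 FPKM without carbon source against 12.8 FPKM at 2% glucose, and NCU06977 693 against 8.26 FPKM. *cut-1*, *gcy-1*, NCU07318 and NCU00265 were the 4 called lower in starvation, *cut-1* with 5.67 FPKM against 117 FPKM.

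Glucose uptake in this fungus has a high-affinity and a low-affinity part, and the low-affinity transporter was not paired with a locus here. *hgt-1* (NCU10021), a high-affinity glucose transporter, had 172 and 170 FPKM at 0.5% glucose, against 157 and 157 FPKM at 2% glucose (log2 fold change 0.12 ± 0.056, adjusted p = 0.094), while the WT averaged 18.8 against 8.68 FPKM. The difference of effect, -0.90 ± 0.079 (limma, adjusted p = 2.90e-08), stayed below the fold threshold. The WT levels are low, and the pseudocount makes changes at such levels appear too small. The annotation used gives no product for NCU04963, NCU01633 and NCU05897, which are given by locus. For NCU04963 the WT had 9.51 against 3.36 FPKM, and the difference of effect was -0.996 ± 0.072 (limma, adjusted p = 2.16e-09), at the edge of the fold threshold. In Δ*col-26* NCU04963 had 169 and 167 FPKM, against 139 and 138 FPKM (0.28 ± 0.051, adjusted p = 2.69e-04). Without any 1 of the 4 libraries this change missed the adjusted p of 0.001 (2.59e-03 to 4.21e-03). NCU01633 was nearly absent from Δ*col-26*, with 1.71 and 2.34 FPKM, against 3.19 and 3.04 FPKM (-0.45 ± 0.102, adjusted p = 1.67e-03, or 4.92e-04 without 0.5% replicate 2), where the WT had 427 against 317 FPKM.

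*cdt-1* (NCU00801), which imports cellodextrins, the short glucose chains released from cellulose, was lower at 0.5% glucose, with 28.9 and 29.8 FPKM, against 35.8 and 36.7 FPKM at 2% glucose (-0.30 ± 0.044, adjusted p = 2.31e-05), and overlaps NCU10770 in the annotation. *cdt-2* (NCU08114) had 25.2 and 22.7 FPKM, against 29.1 and 32.1 FPKM (-0.34 ± 0.077, adjusted p = 1.65e-03). NCU05897 had 570 and 590 FPKM, against 636 and 653 FPKM (-0.15 ± 0.065), and its step differed from the WT, at 5.58 against 1.96 FPKM, by -1.31 (adjusted p = 1.36e-09). Of 29 loci looked up as sugar transporters, 10 were kept because the annotation used gives them a matching name, among them the sensor gene *rco-3* and the quinate permease gene *qa-Y*, while NCU04963, NCU01633 and NCU05897 were not. Of these 10, none was called, 3 were lower and none higher by the adjusted p, and the median log2 fold change was -0.20, where that of all genes was -0.04. Over all genes tested in Δ*col-26*, 12% were lower and 5.16% higher by the adjusted p, which is the scale for each list below. These shares count weak genes, which pass less often. Of the 3297 genes above 20 FPKM, 629 were lower and 329 higher, the closer scale for lists made mostly of such genes. In lists this short, 1 member past the adjusted p does not stand apart from these shares. NCU00821, annotated as a sugar transporter, changed most among those above 20 FPKM, with 116 FPKM in both libraries at 0.5% glucose, against 156 and 161 FPKM at 2% glucose (-0.45 ± 0.034).

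Enzymes that release glucose from sucrose and starch changed by small amounts. *inv* (NCU04265), the invertase that splits sucrose, had 568 and 571 FPKM at 0.5% glucose, against 640 and 643 FPKM at 2% glucose (-0.17 ± 0.034, adjusted p = 4.64e-04), while the WT averaged 24.2 against 10.1 FPKM, and the difference of effect was -1.36 ± 0.048. *gla-1* (NCU01517), a glucoamylase of starch breakdown, had 16.2 and 15.9 FPKM, against 20.04 and 20.9 FPKM (-0.33 ± 0.048), and *gla-2* (NCU02583) 10.6 and 10.3 FPKM, against 11.1 and 11.1 FPKM (-0.08 ± 0.054). Of 6 such hydrolase genes, 3 were lower by the adjusted p and none was called. Under median-ratio scaling 1 of them was lower by the adjusted p, and under quantile normalization none was, *gla-1* included (-0.27, adjusted p = 1.60e-03). The *inv* change missed the adjusted p of 0.001 under median-ratio scaling (-0.09, adjusted p = 0.049), under quantile normalization (-0.11, adjusted p = 0.039) and without any 1 of the 4 libraries (adjusted p = 4.18e-03 to 5.84e-03), and its span overlaps NCU04264.

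In ethanol fermentation both genes tested were lower at 0.5% glucose. *adh-1* (NCU01754), an alcohol dehydrogenase, had 701 and 709 FPKM at 0.5% glucose, against 985 and 1035 FPKM at 2% glucose (-0.52 ± 0.042, adjusted p = 1.09e-08), whereas the WT averaged 1420 ± 2.8 against 674 ± 3.8 FPKM. The difference of effect was -1.59 ± 0.059 (adjusted p = 1.44e-13). *cfp* (NCU02193), the pyruvate decarboxylase, averaged 596 ± 3.3 against 746 ± 41 FPKM (-0.32 ± 0.038). *adh-1* overlaps NCU01753 in the annotation.

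In glycolysis 1 of 6 genes was lower by the adjusted p and none higher, *pgk* (phosphoglycerate kinase) at 386 and 387 FPKM against 470 and 475 FPKM (-0.29 ± 0.026), whose span overlaps NCU07913. In the glyoxylate cycle and gluconeogenesis 2 of 4 were lower, *acu-6* (phosphoenolpyruvate carboxykinase) at 310 and 300 FPKM against 412 and 442 FPKM (-0.48 ± 0.047) and *acu-9* (malate synthase) at means of 93.1 against 114 FPKM. *acu-6* went the other way in Δ*rco-3*, with 117 ± 3.4 against 63.1 ± 0.79 FPKM, and the difference Δ*col-26* minus Δ*rco-3* was -1.37 (adjusted p = 2.49e-11).

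Of 9 carbon regulators 1 was higher and 2 lower by the adjusted p, *csp-1* and *col-26* itself. The value of *col-26* (-0.46 ± 0.066, limma, adjusted p = 1.63e-05) is residual signal at the locus deleted in this strain. *cre-1* (NCU08807), the repressor of carbon catabolite repression, had 82.6 and 79.5 FPKM, against 92.3 and 88.9 FPKM (-0.16 ± 0.038, adjusted p = 2.59e-03). *csp-1* (NCU02713), a repressor that links the clock with metabolism, had 33.8 and 30.8 FPKM, against 45.5 and 46.0 FPKM (-0.49 ± 0.048). Of 15 cellulase, hemicellulase and LPMO genes tested, 1 was above 20 FPKM, *gh10-2*, with 60.9 and 57.5 FPKM against 56.2 and 57.2 FPKM (0.06 ± 0.05, adjusted p = 0.358), and 1 was higher and 1 lower by the adjusted p. The span of *gh10-2* overlaps NCU08190.

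Genes of storage, light and oxidative stress changed in both directions. *ccg-9* (NCU09559), a trehalose synthase, had 11.9 and 12.01 FPKM at 0.5% glucose, against 21.8 and 21.9 FPKM at 2% glucose (-0.82 ± 0.05), and differed from the WT step by -1.17 ± 0.071. *al-1* (NCU00552) and *al-2* (NCU00585) encode enzymes of carotenoid synthesis and were higher at 0.5% glucose, *al-1* with 109 and 102 FPKM against 68.4 and 66.4 FPKM (0.64 ± 0.043) and *al-2* at means of 82.6 against 59.8 FPKM (0.46 ± 0.027). Of 7 clock and light genes, 3 were higher and 2 lower by the adjusted p, which became 4 higher and none lower under median-ratio scaling and 4 higher and 1 lower under quantile normalization. *cat-3* (NCU00355), a catalase, had 124 and 127 FPKM, against 100 and 107 FPKM (0.28 ± 0.047, adjusted p = 1.13e-04, but 2.97e-03 without 0.5% replicate 2 and 4.50e-03 without 2% replicate 1), and the other members of the 6 antioxidant genes gave 1 more change, *cat-1*, with 8.91 and 9.07 FPKM against 16.5 and 19.1 FPKM (-0.91). *am* (NCU01195), the NADP-dependent glutamate dehydrogenase of ammonium assimilation, had 1328 and 1359 FPKM, against 987 and 1059 FPKM (0.39 ± 0.155, adjusted p = 0.054), while the WT averaged 762 against 1228 FPKM (difference 1.08 ± 0.219). Of 11 nitrogen genes 2 were higher and 1 lower (none lower under either scaling), and of 6 glycogen and trehalose genes 1 was higher and 1 lower.

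Clock-controlled genes included abundant transcripts that were lower at 0.5% glucose. Of 15 conidiation and clock-controlled genes taken by name, 7 were lower at 0.5% glucose by the adjusted p and none higher. Over all genes tested, 12% were lower and 5.16% higher. Median-ratio scaling left 5 of the 15 lower and quantile normalization 6, with none higher. In Δ*rco-3* 3 of the 15 were higher and 4 lower, and in the WT 5 were higher and 1 lower. *ccg-1* (NCU03753) had 1003 and 978 FPKM at 0.5% glucose, against 2068 and 1853 FPKM at 2% glucose (-0.98 ± 0.043), and averaged 24583 FPKM without carbon source. *ccg-16* averaged 10532 ± 178 against 15148 ± 790 FPKM (-0.52). *con-8* and *con-10*, by contrast, had log2 fold changes of -0.03 ± 0.087 and 0.00 ± 0.051.

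In 3 larger gene families most members passed the adjusted p in one direction without further scaling, while 2 of the 3 lost that majority under 1 of the other scalings. The families were taken by RefSeq symbol after the results were seen, so their counts are a description. Median-ratio scaling moved the median of all genes from -0.04 to 0.03, and quantile normalization moved it to 0.02. The shares of all genes past the adjusted p were not counted under these scalings, so the counts under them have no matching scale. Of 38 genes of amino acid biosynthesis (*arg*, *aro*, *his*, *ilv*, *leu*, *lys* and *trp* symbols), 25 were higher at 0.5% glucose by the adjusted p and 1 was lower, *ilv-5*, with a median log2 fold change of 0.28, against -0.04 over all genes. *arg-10* had 98.1 and 95.5 FPKM at 0.5% glucose, against 63.4 and 57.8 FPKM at 2% glucose (0.67), *arg-3* 65.4 and 66.8 FPKM, against 42.5 and 44.97 FPKM (0.58), and *arg-2* 194 and 201 FPKM, against 135 and 142 FPKM (0.51). The other 12 did not pass as higher, and *ilv-5* was past the fold threshold. Under median-ratio scaling 31 were higher and under quantile normalization 27, with 1 lower in each case. In Δ*rco-3* the median of the family was 0.00, with 1 higher and 7 lower, and in the WT it was -0.07, with 1 higher and 7 lower, where the shares over all genes in these strains were those given above, between 7.67 and 9.46% per direction.

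Of 10 heat shock protein genes, whose products fold and refold other proteins, 7 were higher at 0.5% glucose and none lower, with a median of 0.38. Over all genes tested, 5.16% were higher, and of the 3297 genes above 20 FPKM, as all 10 were, 329 were higher. *hsp98* had 364 and 354 FPKM at 0.5% glucose, against 228 and 219 FPKM at 2% glucose (0.68 ± 0.04), and the mitochondrial chaperonin *hsp60* had 180 and 181 FPKM, against 115 and 123 FPKM (0.59 ± 0.077). *hsp80*, the cytosolic Hsp90 chaperone, had 714 and 720 FPKM, against 505 and 514 FPKM (0.49). The 3 that did not pass were *hsp88* (0.11), *hsp30* (-0.04) and *hsp90a* (-0.12). In Δ*rco-3* 4 of the 10 were higher and 1 lower with a median of 0.14, and in the WT 1 was higher and 2 lower with a median of -0.01. In Δ*col-26*, 8 were higher under median-ratio scaling and 5 under quantile normalization, with none lower.

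The proteasome genes went the other way. Of 30 genes with *rpn*, *rpt*, *pca* and *pcb* symbols, 24 were lower at 0.5% glucose by the adjusted p and none higher, within -0.35 to -0.11 and with a median of -0.27. Over all genes tested, 12% were lower, and of the 3297 genes above 20 FPKM, as all 30 were, 629 were lower. *pca-1* had 182 and 185 FPKM at 0.5% glucose, against 238 and 231 FPKM at 2% glucose (-0.35 ± 0.032), and *pcb-2* 154 and 151 FPKM, against 195 and 190 FPKM (-0.34). Δ*rco-3* gave 24 lower and 1 higher with a median of -0.29, and the WT 1 higher, none lower and a median of -0.02. Median-ratio scaling shifted the median of all genes to 0.03 and left 12 proteasome genes lower, and 18 were lower under quantile normalization, in both cases with none higher.

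In other families fewer members passed. Without further scaling 5.16% of all genes tested were higher and 12% lower. Of the 3297 genes above 20 FPKM, 329 were higher and 629 lower. Of 29 complex I (*nuo*) genes none passed the adjusted p and the median was -0.03, a sign that turned under median-ratio scaling (0.05) and quantile normalization (0.01). Of 16 *tca* genes of the citric acid cycle 3 were higher and 1 lower, with a median of 0.09. Of 18 *tim* and *tom* genes of mitochondrial protein import 3 were higher and none lower, with a median of 0.14, and of 12 cytoplasmic ribosomal protein genes none passed the adjusted p, with a median of 0.13. These counts depended on the scaling. Under median-ratio scaling 3 *nuo*, 6 *tca*, 8 *tim* and *tom* and 6 ribosomal protein genes were higher. Under quantile normalization 1, 4, 5 and 0 were higher, in the same order. None of these families had a lower gene under either scaling. The shares of all genes were not counted under these scalings, and the percentages above do not apply to them.

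**Figure D4:**
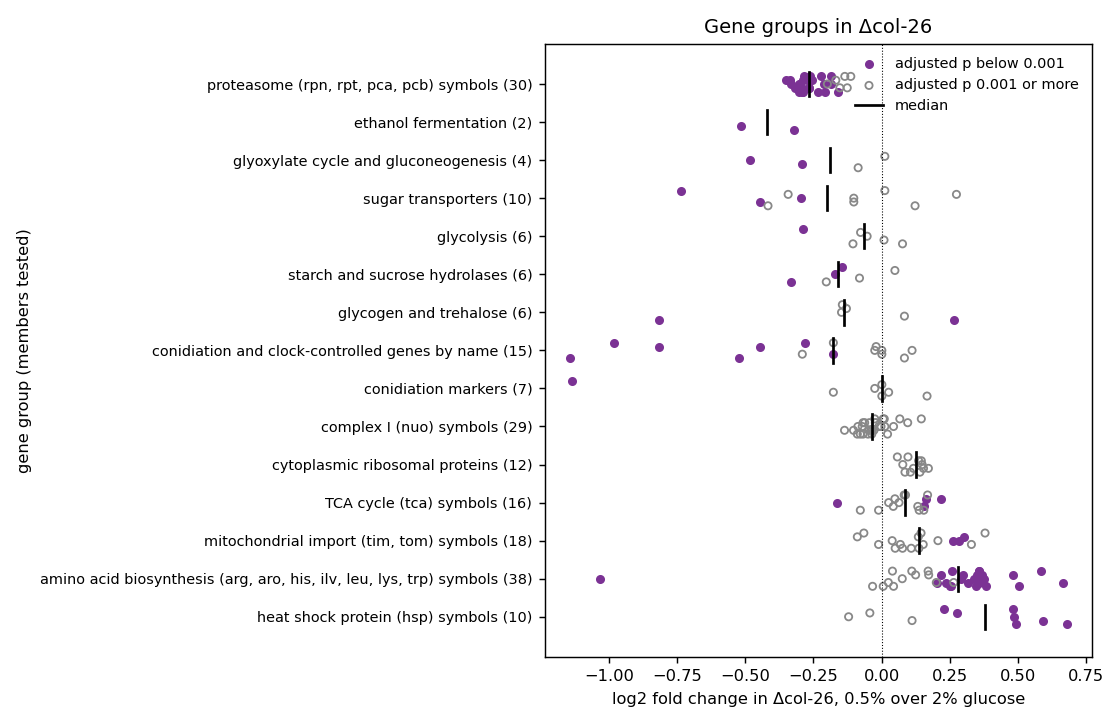
Log2 fold change of 0.5% over 2% glucose in Δ*col-26* for 15 gene groups, with 1 point per gene (filled where the adjusted p was below 0.001, open otherwise) and a black bar at the median. The proteasome genes lie left of 0 within -0.35 to -0.11, and most amino acid biosynthesis genes lie right of it, with *ilv-5* apart at -1.03. The ribosomal protein genes shown are only those that the annotation used names.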

How the data were processed

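The deposited values are FPKM per locus and library, which the authors made from BGISEQ reads trimmed with Trimmomatic 0.36 and counted with RSEM 1.2.8 on the OR74A gene models. The methods name Bowtie2 as the aligner and the submitters' processing notes HISAT2 2.1.0. FPKM are relative to each library's mapped fragments, so abundant genes shift all others.

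Genes were tested with limma 3.58.1 under R 4.3.3, by linear models with trended empirical Bayes moderation of log2(FPKM + 1), with 12 group means, 12 residual and 6.31 prior degrees of freedom, over 7981 of 9730 loci (mean of at least 1 FPKM in a group), and with Benjamini-Hochberg adjustment. DESeq, used by the authors (1.5.1 in the notes), needs counts and was not rerun. An exact permutation test of 2 against 2 libraries cannot go below p = 0.333 and was not used. The fit was tested on simulated data. Groups came from the sample labels.

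Named were up to 12 genes per direction with the largest change past an adjusted p of 0.001, above 20 FPKM and with groups that do not overlap, called list members and the most changed member of each list, 11 genes of glucose sensing, transport and hydrolysis, and the 3 largest differences against the WT in each direction. Members and lists were chosen with earlier results of these data known. List members were kept where the RefSeq symbol, or the annotation of 1026 loci in a supplementary table, matched. Figures were drawn with matplotlib 3.10.9. Alternatives were other pseudocounts, scalings, filters, thresholds and fits, and each library left out. No sequences are shown, since no genome was used here.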

Additional observations from a re-analysis of the deposited data

Results flagged for a closer look

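Each gene below is a named gene whose log2 fold change of 0.5% over 2% glucose differed between strains in a direct test in limma, with an adjusted p below 0.001 over all genes, an absolute difference of at least 1 and more than 20 FPKM in a group. In Δ*col-26* minus the WT the difference was negative in 13 genes, at -2.50 for *fdh*, -2.18 for NCU07108, -2.07 for *ccg-13*, -1.79 for NCU07318, -1.59 for *adh-1*, -1.59 for NCU05527, -1.36 for NCU03660, -1.36 for *inv*, -1.31 for NCU05897, -1.29 for NCU09209, -1.17 for *ccg-9*, -1.03 for NCU09041 and -1.03 for NCU08949. It was positive in 6, at 1.40 for NCU03535, 1.38 for NCU03764, 1.29 for NCU02098, 1.27 for NCU08355, 1.10 for NCU08507 and 1.08 for *am*. In Δ*col-26* minus Δ*rco-3* it was negative in 6 genes, at -1.45 for *cdt-2*, -1.37 for *acu-6*, -1.29 for NCU07108, -1.22 for *cut-1*, -1.06 for NCU05527 and -1.05 for NCU03660. It was positive in 3, at 1.53 for NCU02098, 1.498 for *fdh* and 1.29 for NCU03535. For *ccg-13*, *inv*, *adh-1*, NCU05897, *ccg-9*, NCU03764, NCU08507, *am*, *cdt-2* and *acu-6* the difference passed although the change within Δ*col-26* was not called. NCU03535, NCU02098, NCU09041, NCU03660, NCU03764, *adh-1* and *inv* overlap a neighbouring gene in the annotation. The part of overlapping fragments in these differences was not tested. Groups of 2 libraries are too small for a search for outlying samples.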

How the results depend on the processing

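The 38 genes called in Δ*col-26* kept their sign under every alternative run. Changes selected to be this large could hardly turn, so the kept sign adds no support. A pseudocount of 5 gave 23 calls, 2 higher and 21 lower, and 29 for the difference from Δ*rco-3*. No FPKM minimum gave 57 calls in Δ*col-26*, 6 higher and 51 lower, and 164 for the difference from the WT and 73 from Δ*rco-3*. A fold threshold of 1.5 on the linear scale gave 140 calls, 25 higher and 115 lower, and 449 and 175 for the differences. The profile distance of 0.256 became 0.335 with a pseudocount of 0.1, 0.195 with 5, 0.247 after quantile normalization and 0.241 without a filter. With 1 library left out, where the lone library is assumed to vary like the others, calls ranged from 37 to 41 (3 to 4 higher, 33 to 38 lower), those of the differences from 102 to 115 for the WT and from 41 to 48 for Δ*rco-3*, and the distance from 0.26 to 0.269. Median-ratio scaling gave 5 higher and 27 lower calls, quantile normalization 4 and 26. The replicate block gave 38, 105 and 46 calls as without it and changed no call, although the labels do not tie equal numbers to a common culture, and the deviations of equal numbers correlated at 0.086. Of 432 values of the 48 named genes under other settings, 10 lost and 3 gained an adjusted p below 0.001, and of 192 with a library left out, 10 lost and 1 gained it; none changed sign. Causes were not tested. With 2 libraries per group and no fragment counts, genes below 1 FPKM in every group were not tested.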
